A study of Mus musculus with 18 samples.

Results

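Spermatocytes isolated at postnatal day 18 (P18) were compared with whole testis of the same age, both from Zfp541+/- (Het) mice. The comparison took the 3 P18 spermatocyte Het libraries and the 3 P18 testis Het libraries, chosen by their labels and not by any measured value, out of 18 libraries in the series. All mice were male and C57BL/6J, and both groups carry 1 mutant copy of Zfp541, so neither group is wild type. Zfp541 encodes a zinc-finger protein of male germ cells. The 6 Zfp541-/- (KO) libraries of the same 2 kinds at P18 (3 spermatocyte and 3 testis libraries) entered the same fit. They therefore shaped the scaling, the filter, the standard errors and the calls of the Het comparison. Their own values are set beside the Het values. The labels name the material as spermatocytes and as testicular cells. How the spermatocytes were isolated, and whether replicates are separate animals, is not given in the sources used here. P-values then measure the spread between libraries, which may be partly technical.

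Spermatocytes are the germ cells that carry out meiosis. In the seminiferous tubule they lie between spermatogonia, the mitotic germ cells at the wall, and spermatids, the haploid cells near the lumen, and each tubule also holds Sertoli cells, the somatic nurse cells, and is wrapped in peritubular myoid cells, which contract like smooth muscle. Between tubules lie Leydig cells, which make androgens, with stroma, vessels and macrophages. In the first wave of mouse spermatogenesis the most advanced cells at P18 are late pachytene to diplotene spermatocytes. Taking a tissue apart into single cells is a known trigger of immediate-early genes such as Fos, whose transcripts appear within minutes of a stimulus and decay quickly.

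Values are RPKM in the spermatocyte tables and FPKM in the testis tables, that is, reads or fragments divided by gene length and library size. They were rescaled between libraries and are called levels here. A difference is the mean log2(level + 0.5) of the spermatocyte libraries minus that of the testis libraries, so 1 is about 2-fold for a well expressed gene and low genes are understated. The libraries held 14772300, 9256100 and 18308600 reads on genes (spermatocytes) and 15683800, 14905900 and 16367200 (testis), as recovered from the values. For a gene 1 kb long, each read added 0.0546 to 0.108 to the level. File unit, cell isolation and any difference in library or read handling separate the same 2 groups and cannot be told apart. Gene length moved with the groups. The median difference of protein-coding genes ran from -1.25 for genes with under 300 exonic bases to 0.28 for those of 8000 bases or more, and Mir6236, a row of 123 bases, stood at 31620 to 79570 in spermatocytes and 550.4 to 687 in testis. A second short row, Gm24270 of 57 bases, went the other way, at 3.87 to 14.7 in spermatocytes and 5889 to 6291 in testis. Both rows were chosen after their values were seen, and the part of length and library type in the differences below was not tested beyond the alternatives named there. Unless said otherwise, sets of 3 values run in the order of libraries 1, 2 and 3, with spermatocytes before testis.

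Of 19843 genes tested, 5214 were higher in spermatocytes (26.3%) and 6297 were lower (31.7%), 11511 in either direction (58%), at an adjusted p under 0.05 (limma, Benjamini-Hochberg). Higher genes made up 45.3% of the calls. That share was 34.7% on the values as deposited and 53.2% with median-of-ratios scaling, which moved the median of all genes by -0.14 and 0.12 (log2). The large differences were lopsided: 680 genes were higher by at least 1 (3.43% of those tested) and 3879 were lower by at least 1 (19.5%). The lower set held many short and non-coding rows, with a median exonic length of 1707 bases and 53.7% protein-coding genes, against 4275 bases and 76.18% in the higher set. Levels did not overlap between the 2 groups for 11887 genes (59.9%). With this many genes past the threshold, the counts below are read against these percentages and each list's median against the median of all genes, -0.05.

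**Figure D1:**
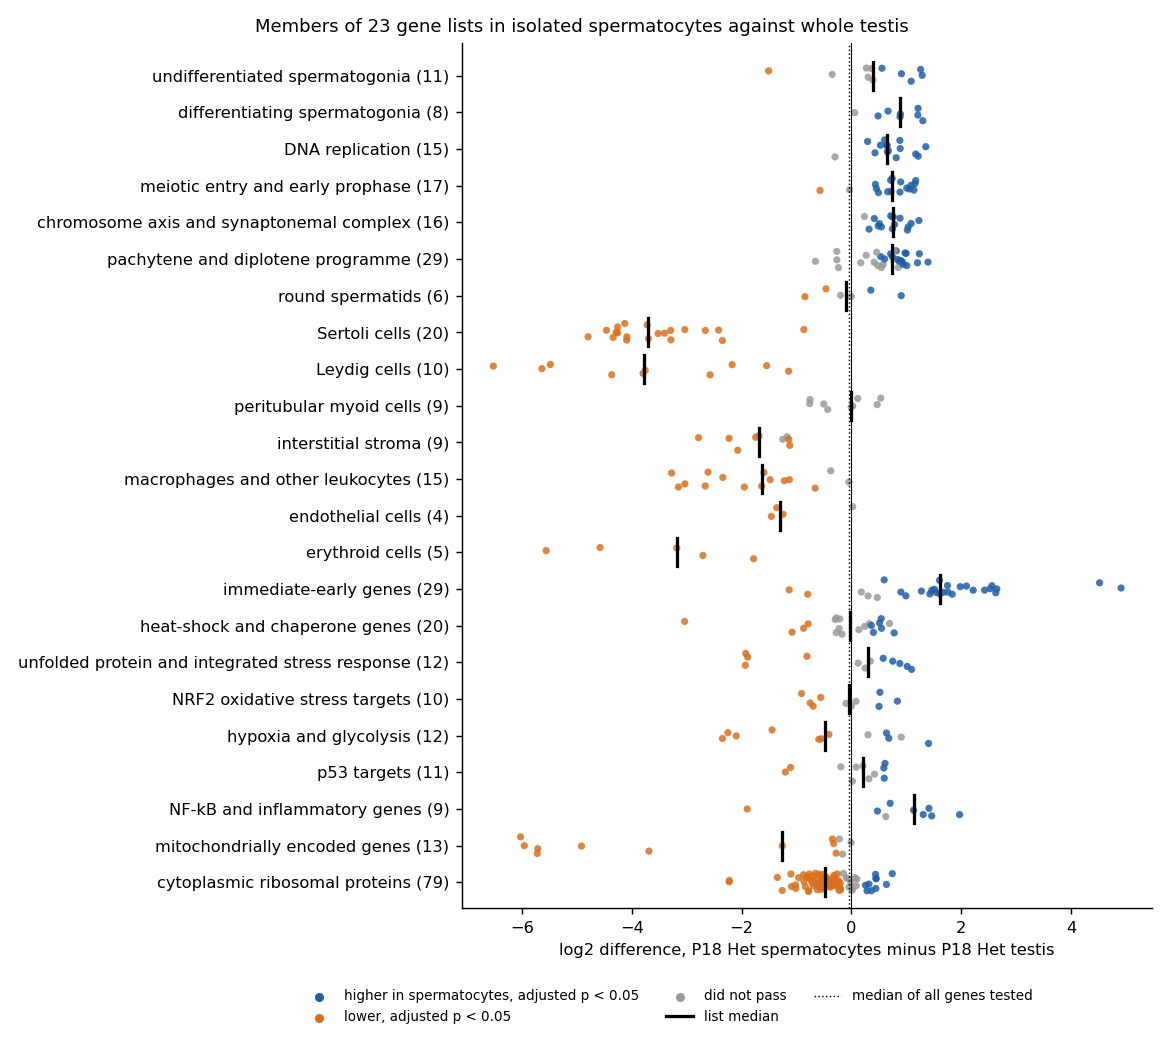
Log2 differences (horizontal axis, P18 Het spermatocytes minus P18 Het testis) of the tested members of 23 gene lists, 1 point per gene, with the number tested in brackets. Blue points were higher and orange points lower at an adjusted p under 0.05, grey points did not pass, thick bars are list medians and the dotted line is the median of all genes; spermatogonial, replication, meiotic and pachytene medians lie to the right of it, round spermatid and myoid medians near 0, and Sertoli and Leydig medians near -3.7.

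The label was set first beside Zfp541 and Sycp3, which do not stand for all markers. H1f6, a defining marker of the pachytene and diplotene list, did not pass (difference -0.27), as given further on. Zfp541 itself stood at 40.5, 31.5 and 56.9 in spermatocyte libraries 1 to 3 and at 27.7, 22.1 and 20.1 in testis libraries 1 to 3. Every spermatocyte library was above every testis library, with a log2 difference of 0.84 ± 0.19 (SE; limma, adjusted p = 0.00289). Sycp3, a core protein of the synaptonemal complex that joins homologous chromosomes, stood at 424, 351 and 412 in spermatocytes and 281, 254 and 297 in testis (0.51 ± 0.09, adjusted p = 8.08e-04). The groups did not overlap, and Sycp3 was abundant in both. Transcripts of other cell types were also present in the fraction. Spermatogonial genes were also higher than in testis, and the contractile genes of peritubular myoid cells did not differ past the threshold, as given further on.

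Genes of meiotic entry and early prophase were higher as a group. Of 17 members tested, 15 were higher and 1 was lower, with a median difference of 0.74. Stra8, the retinoic acid target that licenses entry into meiosis, stood at 82.5, 70.3 and 56.1 in spermatocytes and 34.3, 38.5 and 38.5 in testis, with no overlap and a log2 difference of 0.88 ± 0.12 (SE; limma, adjusted p = 8.99e-05). Mei1, needed for programmed DNA breaks, stood at 15.2, 13.2 and 14.1 against 6.14, 6.32 and 5.56 (1.17 ± 0.09, adjusted p = 9.47e-07). Both groups were tight for this gene, and all spermatocyte values were more than 2 times the testis values. Ythdc2, an RNA helicase that promotes the switch from mitosis to meiosis, was at 32.5, 22.9 and 26.3 against 11.8, 12.0 and 11.7 (1.16 ± 0.13, adjusted p = 1.95e-05). The testis libraries were nearly level for Ythdc2, and spermatocyte library 1 was the highest of its group. Gm4969, the partner of Stra8 also known as Meiosin, stood at 58.4, 41.4 and 46.2 against 21.2, 20.6 and 23.03 (1.14 ± 0.13, adjusted p = 2.20e-05). Dmc1, the meiotic recombinase, was at 74.9, 55.2 and 46.4 against 28.5, 28.8 and 35.3 (0.90 ± 0.18, adjusted p = 0.00146), and its lowest spermatocyte library, the third, was still above its highest testis library. Spo11, the enzyme that makes the breaks, was at 26.8, 21.1 and 24.6 against 17.0, 13.8 and 12.1 (0.74 ± 0.23, adjusted p = 0.0159). Its call was lost without spermatocyte library 1 (difference 0.67). Spermatocyte library 1 was the highest of its group for 15 of the 17 genes of the list. The 1 lower member was Rec8, a meiotic cohesin subunit, at 8.11, 8.01 and 6.39 in spermatocytes and 9.89, 12.2 and 12.1 in testis (-0.57 ± 0.11, adjusted p = 0.0013). Hormad1, an axis protein, did not pass and overlapped between the groups, at 152, 124 and 147 against 152, 135 and 144.

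The chromosome axis and synaptonemal complex genes moved alike. Of 16 members, 15 were higher and none was lower, with a median difference of 0.75. Stag3, a meiosis-specific cohesin subunit, stood at 144, 114 and 163 in spermatocytes and 67.1, 57.1 and 53.2 in testis. The difference was the largest of the list, a log2 difference of 1.23 ± 0.13 (SE; limma, adjusted p = 1.78e-05). Smc1b, its partner in the cohesin ring, was at 187, 142 and 152 against 82.7, 71.8 and 70.0 (1.09 ± 0.13, adjusted p = 3.63e-05). Sycp2, a lateral element protein, was at 240.4, 175 and 238 against 121, 102 and 93.9 (1.03 ± 0.15, adjusted p = 1.33e-04). Sycp1, the transverse filament protein, rose less, at 298, 228 and 239.6 against 174, 162 and 184 (0.55 ± 0.13, adjusted p = 0.00397). For all 4 genes the lowest spermatocyte library lay above the highest testis library. The member that did not pass was Syce3, of the central element, at 58.9, 46.9 and 58.7 against 46.7, 43.7 and 48.3.

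Pachytene and diplotene genes were higher on the whole but far more variable between libraries. Of 29 tested, 16 were higher and none was lower, with a median difference of 0.75. Piwil1, the PIWI protein of pachytene piRNAs, stood at 203, 167 and 318 in spermatocytes and 135, 92.8 and 65.0 in testis, with a log2 difference of 1.24 ± 0.29 (SE; limma, adjusted p = 0.00394). Rfx2, a transcription factor of the spermatid programme, was at 32.5, 27.3 and 50.4 against 20.6, 14.6 and 11.5 (1.20 ± 0.23, adjusted p = 0.00114). Neither gene overlapped between groups, and in both the first testis library was well above the third. Ldhc, the germ-cell lactate dehydrogenase, was at 659, 537 and 1259 against 607, 377 and 239.6 (1.01 ± 0.39, adjusted p = 0.0466), and these groups overlap. Tdrd6, a chromatoid body protein, was at 66.8, 56.5 and 144 against 52.9, 31.4 and 17.4 (1.40 ± 0.42, adjusted p = 0.0153). Spermatocyte library 3 was the highest of its group for 27 of the 29 genes, and testis library 1 was the highest of its group for 28. The labels give no stage finer than P18. Without spermatocyte library 3, 11 members were higher and the list median was 0.42. Without testis library 1, 21 were higher, and without testis library 2, 11. A fit of the 6 Het libraries alone called 9. Calls for Ldhc and Tdrd6 were lost without spermatocyte library 3, where their differences were 0.65 and 0.99. Among members that did not pass were Pgk2, Ccna1 and H1f6. Pgk2, the autosomal phosphoglycerate kinase of meiotic and haploid cells, was at 9.95, 10.4 and 28.6 against 22.9, 13.5 and 6.63 (adjusted p = 0.758). Ccna1, the cyclin of late meiotic prophase, was at 3.92, 5.32 and 16.3 against 16.5, 7.57 and 4.65 (adjusted p = 0.693). Spermatocyte library 3 and testis library 1 were the high libraries of their groups for both genes, and the groups overlap. H1f6, the testis linker histone, was at 2.98, 2.65 and 2.17 against 4.17, 2.57 and 3.03 (difference -0.27, adjusted p = 0.264), and its sign turned with the length adjustment.

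**Figure D2:**
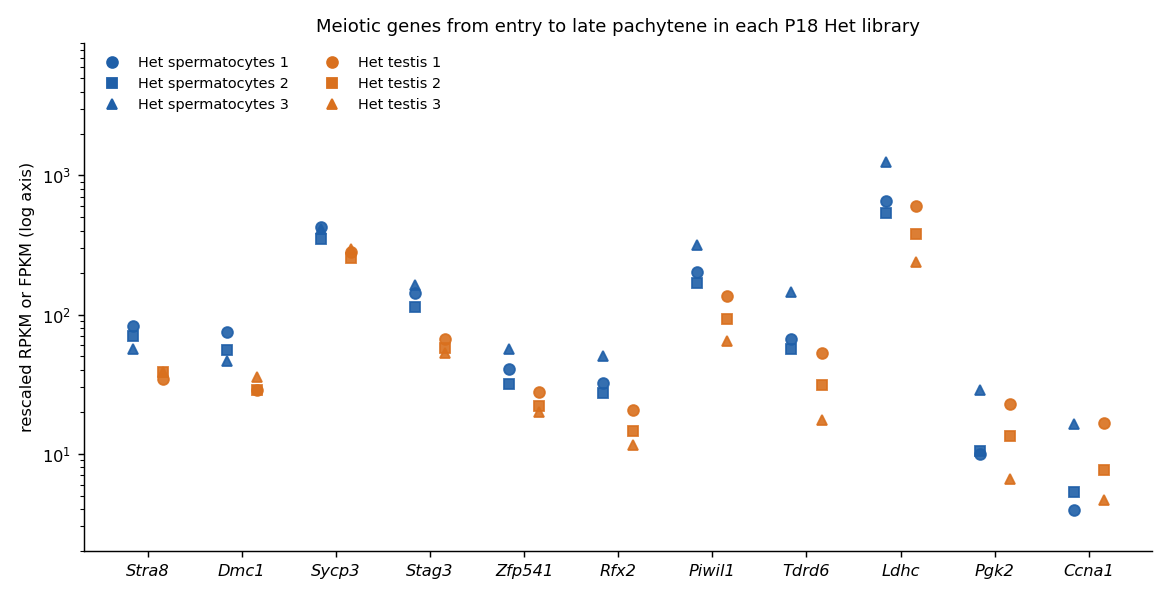
Levels (rescaled RPKM or FPKM, log axis) of 11 meiotic genes in each P18 Het library, spermatocytes in blue and testis in orange, with circles, squares and triangles for libraries 1, 2 and 3. Stra8, Sycp3 and Stag3 separate the fractions with little spread, while Tdrd6, Ldhc, Pgk2 and Ccna1 are highest in library 3 within spermatocytes, and highest in library 1 and lowest in library 3 within testis.

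Most spermatid transcripts were near the floor in both fractions. Of 19 listed round spermatid genes, 6 reached the filter, with 2 higher and 2 lower and summed levels of 23.04, 25.3 and 23.1 in spermatocytes and 25.3, 22.3 and 24.1 in testis. Prm1, the sperm protamine, was at 2.32, 2.39 and 1.45 against 1.55, 0.667 and 0.505 (0.91 ± 0.28, adjusted p = 0.0182), a call that ended in 4 of the alternative fits, among them without spermatocyte library 1, without testis library 2 and without testis library 3. Gapdhs, the glycolytic enzyme of sperm, was lower, at 2.83, 3.78 and 3.29 against 5.83, 6.23 and 6.87 with no overlap (-0.85 ± 0.12, adjusted p = 1.20e-04). Oaz3, a germ-cell antizyme, was higher, at 10.52, 10.6 and 10.2 against 8.70, 7.19 and 8.42 (0.35 ± 0.09, adjusted p = 0.00582), a call that ended on the values as deposited. Spaca1, an acrosomal membrane protein, was lower, at 1.93, 1.84 and 1.52 against 2.42, 2.50 and 2.93 (-0.46 ± 0.13, adjusted p = 0.0106), a call that ended without testis library 3 among others. Tnp1, a transition protein of condensing spermatids, was at 0.168, 0.48 and 0.438 against 0, 0.29 and 0.132, below the filter. Acrv1, an acrosomal protein, was nearly absent in all 6 libraries, at 0.0403, 0.0288 and 0.0699 against 0.0695, 0.0696 and 0.079.

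Spermatogonial and S-phase genes were enriched along with the meiotic ones. Of 8 genes of differentiating spermatogonia, 7 were higher and none was lower (median 0.89). Kit, the stem cell factor receptor, stood at 20.8, 18.8 and 16.3 in spermatocytes and 6.04, 8.56 and 7.28 in testis, with no overlap and a log2 difference of 1.30 ± 0.13 (SE; limma, adjusted p = 1.18e-05). Sohlh1, a transcription factor of the same stage, was at 28.4, 31.7 and 19.5 against 8.90, 12.1 and 12.2 (1.21 ± 0.17, adjusted p = 1.13e-04). Neither gene overlapped between the groups. Among 11 genes of undifferentiated spermatogonia, 5 were higher and 1 was lower (median 0.39). Gfra1, the receptor for the niche factor GDNF, was at 2.40, 2.93 and 1.96 against 0.845, 0.857 and 0.895 (1.09 ± 0.15, adjusted p = 9.19e-05). Its co-receptor Ret was at 4.15, 4.53 and 2.71 against 0.919, 1.44 and 1.37 (1.29 ± 0.21, adjusted p = 3.87e-04). Sall4, a germline zinc-finger factor, was at 14.3, 14.6 and 9.01 against 4.55, 4.71 and 5.37 (1.26 ± 0.16, adjusted p = 5.38e-05). Zbtb16, another, was at 13.4, 15.8 and 8.41 against 5.39, 6.83 and 6.54 (0.91 ± 0.19, adjusted p = 0.00163). For these 4 genes spermatocyte library 3 was the lowest of its group, the reverse of its place among pachytene genes, and it was the lowest for 9 of the 11. Id4, a stem cell marker, did not pass, at 21.0, 16.3 and 27.8 against 18.96, 16.6 and 15.8, though it did without spermatocyte library 2. Etv5, an ETS factor that Sertoli cells also express, was lower, at 2.37, 2.46 and 2.07 against 7.32, 7.31 and 7.67 (-1.51 ± 0.11, adjusted p = 9.87e-07). All but 1 of the 15 DNA replication genes were higher (median 0.66). Mki67, a proliferation marker, was at 80.2, 69.7 and 55.5 against 26.9, 26.0 and 25.7 (1.35 ± 0.12, adjusted p = 3.52e-06). Mcm2, a subunit of the replicative helicase, was at 22.6, 22.0 and 18.3 against 7.53, 9.32 and 9.37 (1.22 ± 0.11, adjusted p = 4.41e-06), and Mcm5, of the same helicase, rose by a like amount (1.17 ± 0.11, adjusted p = 6.99e-06). Testis libraries were close together for these genes, and every spermatocyte library lay above them.

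Sertoli cell transcripts were removed almost entirely. All 20 genes tested were lower, 1 of which reached the filter through testis libraries alone, and their summed level was 147, 147 and 87.3 in spermatocyte libraries against 2010, 2221 and 2501 in testis, 5.66% of the testis mean. Sox9, the transcription factor that specifies Sertoli cells, stood at 1.99, 1.70 and 0.956 against 29.1, 33.4 and 38.8, with a log2 difference of -4.09 ± 0.20 (SE; limma, adjusted p = 9.37e-08). Cldn11, a tight junction protein of the blood-testis barrier, was at 10.7, 9.03 and 5.39 against 149, 165 and 177 (-4.26 ± 0.37, adjusted p = 3.60e-06). Rhox5, an X-linked homeobox gene of Sertoli cells, was at 2.15, 4.59 and 1.52 against 30.7, 31.2 and 41.2 (-3.52 ± 0.28, adjusted p = 1.86e-06). The groups were far apart for all 3, and spermatocyte library 3 was the lowest of the 6 libraries. The largest fall of the list was Cst12, a cystatin-related gene, at 12.5, 11.4 and 6.42 against 257, 272 and 326 (-4.80 ± 0.26, adjusted p = 1.70e-07). In bulk RNA fewer cells of a type and less RNA per cell cannot be told apart. Amh, the anti-Müllerian hormone, was at 2.77, 2.07 and 3.02 against 17.1, 20.6 and 19.7 (-2.66 ± 0.16, adjusted p = 2.89e-07). Spermatocyte library 3 had the lowest level of its group for 18 of the 20 genes, and testis library 3 the highest of its group for 18. The smallest difference belonged to Gdnf, the spermatogonial niche factor, at 0.2, 0.743 and 0.486 against 1.14, 1.24 and 1.32 (-0.87 ± 0.29, adjusted p = 0.0227).

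Leydig cell genes went the same way. Of 10 tested, 6, the steroid enzymes Hsd3b1, Hsd3b6 and Cyp11a1 among them, reached the filter through testis libraries alone, which set their direction. The other 4, Insl3 among them, were all lower, and the sum of the list was 4.06% of the testis mean. Insl3, the insulin-like hormone of Leydig cells, stood at 0.236, 0.505 and 1.02 in spermatocytes and 87.7, 98.8 and 99.4 in testis (difference -6.52 ± 0.32, SE). This was the largest fall among protein-coding genes with a mean of at least 5 in the higher group and no overlap. Of the spermatocyte libraries only Het library 3, and no KO library, reached the filter level of 1. Testis libraries thus carried Insl3 past the filter and set its direction, and it is given as values. Of its 50-base words, 61.9% also occur in other annotated genes. Hsd3b1, a steroid dehydrogenase, was at 0.0793, 0 and 0.0344 against 21.2, 24.3 and 25.2 (difference -5.48 ± 0.13). Its relative Hsd3b6 was at 0.0816, 0 and 0.0354 against 21.5, 26.9 and 31.4 (difference -5.64 ± 0.17). For both enzymes the spermatocyte levels equal at most a few reads. Cyp11a1, which makes the first step from cholesterol to steroids, was at 0.0765, 0.0437 and 0.0265 against 7.28, 5.92 and 8.33 (difference -3.79 ± 0.22). Star, which carries cholesterol into mitochondria, kept more, at 4.06, 3.95 and 4.33 against 15.4, 6.25 and 9.32 (-1.14 ± 0.30; limma, adjusted p = 0.00748).

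Blood cell transcripts were at or near 0. The 5 erythroid genes tested all reached the filter through testis libraries alone, so their direction was set by the filter. Hbb-bs, Hba-a1 and Hbb-bt, globin genes of red cells, were listed at 0 in all 3 spermatocyte libraries, while in testis Hbb-bs stood at 18.2, 17.5 and 38.4, Hba-a1 at 9.84, 7.74 and 19.5 and Hbb-bt at 2.44, 3.61 and 7.22. Testis library 3 was the highest for all 3 genes. Between 53.2% and 72.3% of their 50-base words also occur in other annotated genes, such as neighbouring globin copies. Of 15 macrophage and leukocyte genes, 4 reached the filter through testis libraries alone and 9 of the other 11 were lower, with summed levels of 12.0, 15.3 and 7.73 against 63.3, 73.9 and 73.1. Lyz2, lysozyme, was at 0.726, 0.877 and 0.484 against 9.88, 12.4 and 10.8 (-3.27 ± 0.17, adjusted p = 1.31e-07). C1qa, a complement subunit of macrophages, was at 0.565, 1.41 and 0.552 against 9.02, 12.4 and 11.7 (-3.15 ± 0.21, adjusted p = 5.24e-07). Mrc1, the mannose receptor, was at 0.542, 0.659 and 0.28 against 7.502, 7.47 and 7.58 (difference -3.03 ± 0.21). Csf1r, the receptor for colony stimulating factor 1, fell less, at 3.08, 2.94 and 3.19 against 5.04, 5.35 and 5.04 (-0.66 ± 0.09, adjusted p = 1.21e-04). Every testis library was above every spermatocyte library for these 4 genes. Only 4 of 10 endothelial genes reached the filter, 3 of them through testis libraries alone, among them Cdh5, the cadherin of vessel walls, at 0.717, 0.874 and 0.895 against 3.26, 3.77 and 2.51. Pecam1, another endothelial adhesion protein, was under the filter at 0.189, 0.27 and 0.225 against 0.611, 0.744 and 0.676.

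Peritubular myoid genes were the exception among somatic lists. None of the 9 tested passed in either direction (median -0.01). Acta2, smooth muscle actin, stood at 32.9, 101 and 79.7 in spermatocytes and 57.2, 76.3 and 61.5 in testis, overlapping fully, with a log2 difference of -0.01 ± 0.48 (SE; limma, adjusted p = 0.993). Its sign turned under 5 alternatives, and without spermatocyte library 1 the difference was 0.47. Myh11, smooth muscle myosin, was at 13.4, 36.5 and 31.7 against 15.3, 20.49 and 15.96 (0.53 ± 0.49, adjusted p = 0.37). Summed myoid levels were 100.3, 264 and 216 in spermatocytes and 185, 230.2 and 209 in testis. Spermatocyte library 1 was the lowest of its group for all 9 genes, and library 2 the highest for all 9. A p that misses the threshold does not show equal levels, and the spread between spermatocyte libraries was wide. Stromal genes were mostly lower. Of 9 tested, 1 reached the filter through testis libraries alone and 6 of the other 8 were lower. Dcn, decorin of the connective matrix, was at 1.26, 2.59 and 2.19 against 17.5, 17.3 and 14.4 (-2.78 ± 0.30, adjusted p = 1.83e-05). Pdgfra, a growth factor receptor of interstitial and Leydig precursor cells, was at 2.08, 4.65 and 3.52 against 7.5, 9.58 and 6.60 (-1.14 ± 0.37, adjusted p = 0.0226), a call lost without spermatocyte library 1 (-0.87) and without testis library 2 (-0.999). Col3a1, a fibrillar collagen, was at 7.56, 10.6 and 9.81 against 57.6, 51.5 and 22.0 (-2.07 ± 0.53, adjusted p = 0.00622), and testis library 3 was well below the other two.

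**Figure D3:**
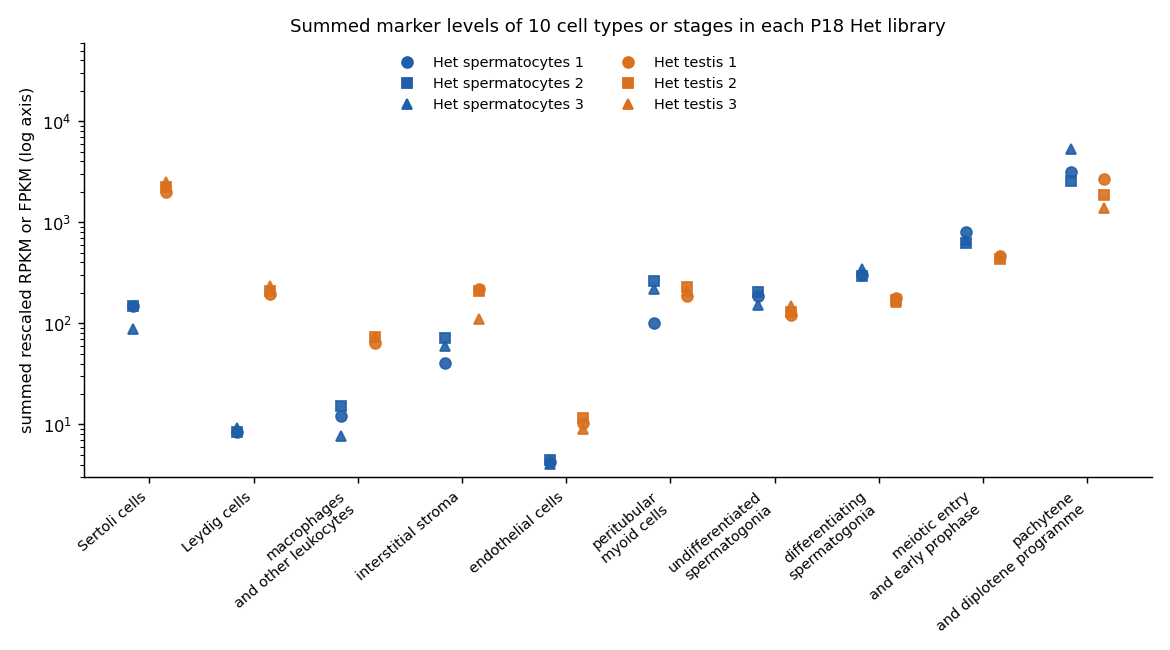
Summed rescaled levels (log axis) of the listed genes of 10 cell types or stages in each P18 Het library, spermatocytes in blue and testis in orange, with circles, squares and triangles for libraries 1, 2 and 3. Sertoli and Leydig sums are more than 10 times lower in spermatocytes, macrophage, stromal and endothelial sums are lower by less, myoid sums overlap, and the 4 germ-cell sums are higher or overlap.

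Immediate-early genes held the largest rises among protein-coding genes that met the level and overlap criteria. All 10 of the largest rises among protein-coding genes, taken by the same level and overlap criteria as the falls, were members of this list, and 24 of its 29 members were higher, 2 were lower and 3 did not pass (median 1.61). The list had 82.8% higher against 26.3% of all genes, but that share and the median count 4 members whose direction the filter set. Atf3, Egr2, Egr3 and Fosb reached the filter through spermatocyte libraries alone, which set their direction. Fosb and Atf3, both among the 10 largest rises, are therefore given as values. Of the other 25 members 20 were higher and 2 lower. Fosb, a subunit of the AP-1 transcription factor, stood at 16.3, 33.6 and 36.3 in spermatocytes and 0.487, 0.508 and 0.277 in testis (difference 4.91 ± 0.39). Fos, another AP-1 subunit, was at 33.0, 63.0 and 62.7 against 2.08, 1.59 and 1.57, with a log2 difference of 4.52 ± 0.34 (SE, limma, adjusted p = 1.35e-06). For both genes the lowest spermatocyte library was over 10 times the highest testis library. Egr1, a zinc-finger factor of the growth and stress response, was at 27.4, 49.9 and 43.3 against 4.86, 7.51 and 5.32 (2.65 ± 0.30, adjusted p = 2.59e-05). Atf3, a stress-induced factor of the ATF family, was at 4.47, 6.87 and 8.29 against 0.647, 0.677 and 0.508 (difference 2.63 ± 0.28). Nr4a1, an orphan nuclear receptor, was at 14.6, 41.6 and 33.1 against 7.46, 3.18 and 3.04 (2.56 ± 0.51, adjusted p = 0.00139), and the first testis library was more than 2 times the other two. Socs3, an inhibitor of cytokine signalling, was at 5.57, 8.35 and 6.46 against 0.68, 0.79 and 0.778 (2.53 ± 0.21, adjusted p = 2.23e-06). Junb, an AP-1 partner of Fos, was at 22.3, 46.0 and 44.1 against 6.41, 5.54 and 6.79 (2.43 ± 0.39, adjusted p = 3.63e-04). Jun, the partner of Fos in AP-1, was at 17.2, 31.4 and 23.03 against 7.39, 7.5 and 7.99 (1.54 ± 0.23, adjusted p = 1.69e-04). Library 1 was the lowest of the spermatocyte group for all of these, and no spermatocyte value fell inside the testis range. Gadd45b, a stress-response gene, was at 42.8, 56.8 and 45.9 against 10.4, 8.59 and 10.99 (2.22 ± 0.13, adjusted p = 2.27e-07), with the smallest standard error of these 10. Ier3, an early response gene tied to cell survival, had a difference of 2.10 ± 0.14, and Ccn1, a matrix protein induced by growth factors, one of 1.98 ± 0.45. The 2 lower members did not overlap between groups either. Klf6, a zinc-finger factor, was at 4.10, 6.79 and 4.17 against 9.62, 12.0 and 12.6 (-1.13 ± 0.21, adjusted p = 8.03e-04), and Rhob, a small GTPase, was at 16.7, 24.7 and 19.03 against 32.4, 35.1 and 37.3 (-0.79 ± 0.17, adjusted p = 0.00231). Myc did not pass, at 0.433, 1.27 and 0.986 against 0.327, 1.14 and 0.743.

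The upstream sequences of 4 of these genes are shown because immediate-early genes are classic targets of factors that bind the cAMP response element (CRE), TGACGTCA. Each is the 250 bases before the RefSeq start (GRCm38.p6), read 5′ to 3′ on the gene's strand, with every TGACG or its reverse complement CGTCA in capitals, which includes the full CRE of Dusp1. Fos lies at chr12:85473640-85473889 (plus strand), Fosb at chr7:19310046-19310295 (minus strand), Nr4a1 at chr15:101266596-101266845 (plus strand) and Dusp1, a phosphatase of MAP kinases, at chr17:26508473-26508722 (minus strand).
Fos: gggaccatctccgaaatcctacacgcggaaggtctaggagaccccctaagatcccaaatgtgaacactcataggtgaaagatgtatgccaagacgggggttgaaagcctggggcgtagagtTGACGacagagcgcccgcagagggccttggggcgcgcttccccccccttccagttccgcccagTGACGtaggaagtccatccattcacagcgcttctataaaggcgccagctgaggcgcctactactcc
Fosb: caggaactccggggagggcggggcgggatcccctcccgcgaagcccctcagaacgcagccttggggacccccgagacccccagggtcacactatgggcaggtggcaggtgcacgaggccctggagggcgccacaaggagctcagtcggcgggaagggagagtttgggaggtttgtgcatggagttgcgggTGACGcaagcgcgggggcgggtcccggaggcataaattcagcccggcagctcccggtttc
Nr4a1: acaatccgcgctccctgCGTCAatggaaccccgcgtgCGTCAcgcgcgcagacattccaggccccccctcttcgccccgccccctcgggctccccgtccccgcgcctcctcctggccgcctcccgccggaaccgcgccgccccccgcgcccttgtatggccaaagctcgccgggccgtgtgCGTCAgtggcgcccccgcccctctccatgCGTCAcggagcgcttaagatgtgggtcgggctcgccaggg
Dusp1: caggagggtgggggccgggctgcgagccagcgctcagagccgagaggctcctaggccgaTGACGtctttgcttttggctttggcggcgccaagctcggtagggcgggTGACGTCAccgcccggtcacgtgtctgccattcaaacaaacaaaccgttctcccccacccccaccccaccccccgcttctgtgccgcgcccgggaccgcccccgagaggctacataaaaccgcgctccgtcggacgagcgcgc
Counted back from the start at the first base of a word, Fos held 2, at -129 and -66, Fosb held 1, at -60, and Nr4a1 held 4, all as CGTCA. In Dusp1 the full CRE ran from -143 to -136, and a TGACG stood alone further upstream. Dusp1 levels were 5.42, 9.60 and 7.74 in spermatocytes and 2.35, 1.69 and 2.30 in testis (1.61 ± 0.21, adjusted p = 6.92e-05). Windows of 250 bases before to 50 after a start were held for 24 of the 29 immediate-early genes. Egr1, another of the largest rises, was not among the 24. On either strand 4 of the 24 contained TGACGTCA (16.7%), namely Btg2, Dusp1, Maff and Ppp1r15a, and 14 contained TGACG (58.3%). The 4 sequences shown all hold TGACG and do not stand for the list. The windows of Socs3, Gadd45b and Ier3, also among the largest rises, held none of these words, nor did that of Jun. Of the promoter windows held, none carries a measurement of binding in these data. Among the 27025 genes with a window used here the shares were 2.03% and 23%, and among the 11536 tested genes matched by symbol 3.38% and 33.9%. The CArG box, the serum response factor motif, was in 2 of the 24 (8.33%) and in 1.81% of all. A match is a description of letters and not a binding site, and the TGACG word is part of the longer one.

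The rise was uneven across spermatocyte libraries. Library 1 was the lowest of its group for 27 of the 29 immediate-early genes, and library 2 the highest for 23. The summed levels were 429.7, 709 and 598 in spermatocytes and 191, 207 and 209.8 in testis. Myoid sums ran in the same order in these libraries, 100.3, 264 and 216. In KO spermatocytes the immediate-early sums were 586, 783 and 1091 and the myoid sums 94.5, 205 and 368, again in 1 order. The part of myoid cells in the immediate-early values was not tested. In whole testis the myoid sums lay in the same range, 185, 230.2 and 209, with immediate-early sums of 191, 207 and 209.8. Without spermatocyte library 1, 24 members were higher and the median was 1.85.

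**Figure D4:**
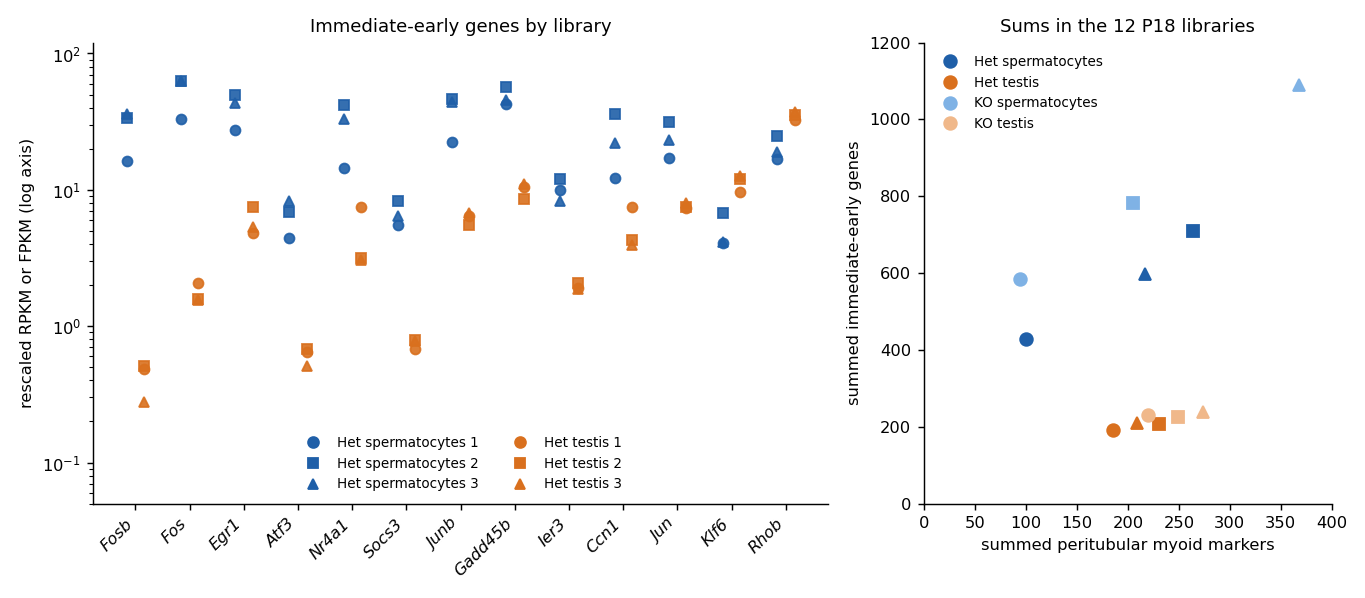
Left, levels (rescaled RPKM or FPKM, log axis) of 13 immediate-early genes in each P18 Het library, spermatocytes in blue and testis in orange; Fosb and Fos separate most, and Klf6 and Rhob are lower in spermatocytes. Right, the summed immediate-early genes (vertical) against the summed myoid markers (horizontal) in the 12 P18 libraries, with circles, squares and triangles for libraries 1, 2 and 3; the testis libraries stay between 191 and 239 while the spermatocyte libraries run from 430 to 1091.

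Some inflammatory genes of NF-kB, a transcription factor of the stress and immune response, were also higher, from a very low base. Of the 9 members tested, 6 reached the filter through spermatocyte libraries alone, so their direction was set by the filter and they are given as values. The other 3 had 2 higher and 1 lower. Icam1, an adhesion molecule, stood at 3.54, 4.53 and 3.99 in spermatocytes and 1.34, 1.31 and 1.31 in testis (1.31 ± 0.18, adjusted p = 1.17e-04), with no overlap. Relb, an NF-kB subunit, was at 4.79, 4.83 and 3.99 against 2.69, 3.19 and 3.52 (0.47 ± 0.11, adjusted p = 0.0039). Cxcl2, a neutrophil chemokine, stood at 0.853, 2.44 and 1.51 in spermatocytes and 0.0307, 0 and 0 in testis. Ccl2, a monocyte chemokine, was at 0.775, 1.20 and 0.84 against 0, 0.0558 and 0, and Cxcl1 at 1.18, 1.46 and 1.802 against 0.372, 0.237 and 0.123. These levels rest on few reads, so the counting error is large. Nfkbia, the inhibitor of NF-kB and itself its target, was lower, at 6.39, 8.34 and 5.86 against 24.0, 25.9 and 30.5 (-1.90 ± 0.20, adjusted p = 1.72e-05).

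The heat-shock genes were split, and their balance depended on which genes were kept. Of 20 members, 6 were higher, 4 were lower and 10 did not pass (median -0.02), shares of 30% and 20% against 26.3% and 31.7% of all genes. On the values as deposited 7 were lower. In 10 of the 20 genes over 10% of 50-base words also occur in other annotated genes. Among the other 10, fitted with long protein-coding genes of little shared sequence, 7 were higher and 0 lower, with a median of 0.46. All genes of that fit had 40.3% higher, 27.7% lower and a median of 0.18. At a level of 5 in 3 libraries the list median was 0.24, against 0.16 for all genes. The inducible HSP70 genes were low and overlapped between fractions. Hspa1a stood at 1.58, 2.26 and 1.70 in spermatocytes and 1.84, 2.91 and 2.33 in testis (-0.28 ± 0.19, adjusted p = 0.233). Its copy Hspa1b was at 3.44, 3.97 and 2.98 against 3.60, 3.37 and 5.02 (-0.17 ± 0.16, adjusted p = 0.367). Of their 50-base words 66.3% and 62.3% also occur in other annotated genes, so reads may be split between the copies, and the sign of Hspa1b turned without testis library 3. Hspa4l, a HSP110 family chaperone of germ cells, was at 63.6, 48.7 and 80.8 against 45.04, 35.2 and 30.8 (0.78 ± 0.18, adjusted p = 0.00323), with spermatocyte library 3 highest as among pachytene genes. Dnajb1, an HSP40 co-chaperone, was at 47.1, 40.6 and 73.8 against 44.2, 33.9 and 29.6 (0.55 ± 0.20, adjusted p = 0.0382), a call lost in 6 alternatives, among them without spermatocyte library 3 and without testis library 2. Hspa4, another HSP110 family member, had a difference of 0.54 ± 0.11. Hspb1, a small heat-shock protein, was lower, at 2.78, 3.97 and 2.97 against 26.2, 29.9 and 34.0 (-3.04 ± 0.23, adjusted p = 1.38e-06). Cryab, its relative, fell less, at 0.547, 1.14 and 0.905 against 2.01, 2.49 and 2.53 (-1.08 ± 0.21, adjusted p = 0.00133), and Dnaja1, an HSP40 protein, by less again (-0.87 ± 0.09, adjusted p = 8.31e-06). Spermatocyte and testis values of Hspb1 and Cryab did not overlap.

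Other stress lists were split. In the unfolded protein and integrated stress response list, 5 of 12 were higher and 4 were lower (median 0.30). Atf4, the transcription factor at the centre of the integrated stress response, stood at 48.6, 54.8 and 56.3 in spermatocytes and 25.5, 25.8 and 26.9 in testis, tight in both groups, with a log2 difference of 1.02 ± 0.08 (SE; limma, adjusted p = 1.93e-06). The other large rises of the list were Sdf2l1 and Hyou1, both factors of protein folding in the endoplasmic reticulum. Sdf2l1 was at 80.2, 71.1 and 115 against 49.7, 38.9 and 34.1 (1.10 ± 0.19, adjusted p = 4.85e-04), and Hyou1 was at 109, 92.7 and 136 against 62.4, 59.3 and 58.6 (0.88 ± 0.12, adjusted p = 1.21e-04). Dnajb9, a co-chaperone of the same compartment, did not pass, at 30.2, 26.6 and 32.7 against 24.9, 23.5 and 26.4. The 3 largest falls of the list, all known targets of ATF4 or its pathway, went the other way. Asns, asparagine synthetase, was at 5.78, 4.57 and 3.43 against 16.9, 19.6 and 19.4 (-1.93 ± 0.16, adjusted p = 2.01e-06). Ddit4, an inhibitor of mTOR signalling, was at 7.75, 8.13 and 5.74 against 25.0, 29.2 and 31.6 (-1.93 ± 0.12, adjusted p = 3.32e-07). Sesn2, a stress-induced sestrin, was at 9.84, 9.18 and 8.15 against 32.1, 35.6 and 36.8 (-1.89 ± 0.09, adjusted p = 7.97e-08). None of the 3 overlapped between the groups. Among 10 oxidative stress targets of NRF2, 3 were higher and 4 lower. Nqo1 reached the filter through testis libraries alone, which set its direction, and the other 9 had 3 higher and 3 lower. Gclc and Gclm, the subunits of the enzyme that starts glutathione synthesis, had differences of 0.84 ± 0.08 and 0.50 ± 0.08, and Mt1, a metallothionein, one of 0.52 ± 0.15. Lower were Osgin1, an oxidative stress growth inhibitor, at -0.91 ± 0.20, Srxn1, sulfiredoxin, at -0.75 ± 0.23, and Nqo1, a quinone reductase, at -0.70 ± 0.19. Hmox1, heme oxygenase, did not pass, at 9.74, 9.71 and 7.90 against 8.22, 8.59 and 10.6. The Srxn1 call was lost without spermatocyte library 1 and without testis library 3, and the Mt1 call in a fit of the 6 Het libraries alone. Without testis library 3 the list had 2 lower members.

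Of 12 hypoxia and glycolysis genes, 3 were higher and 7 were lower (median -0.48). Hk2, hexokinase 2, stood at 4.68, 5.15 and 3.69 against 21.8, 25.1 and 27.9 (-2.35 ± 0.15, adjusted p = 3.27e-07). Pgk1, the X-linked phosphoglycerate kinase, was at 2.82, 2.71 and 2.70 against 13.1, 16.1 and 15.8 (-2.25 ± 0.09, adjusted p = 2.82e-08). Pfkfb3, a regulator of glycolysis, was at 0.68, 0.777 and 0.565 against 4.17, 4.25 and 5.17 (-2.10 ± 0.15, adjusted p = 8.85e-07). Both groups were tight for these 3 genes. Pgk1 shares 53.9% of its 50-base words with other annotated genes. Slc2a3, the glucose transporter GLUT3, was higher, at 203, 166 and 393 against 142, 89.8 and 55.0 (1.41 ± 0.39, adjusted p = 0.00997), with spermatocyte library 3 above the rest. Egln3, an oxygen sensor, and Ankrd37, a hypoxia target, were higher by 0.64 ± 0.16 and 0.68 ± 0.17. Among 11 p53 targets, 3 were higher and 2 lower. The higher count was 6 with median-of-ratios scaling and 5 without testis library 3. Bax, a death effector, was at 28.7, 28.0 and 24.4 against 16.8, 16.8 and 18.8 (0.61 ± 0.11, adjusted p = 5.84e-04). Mdm2, the ubiquitin ligase of p53, was at 40.9, 33.2 and 49.0 against 30.0, 25.6 and 24.9 (0.59 ± 0.13, adjusted p = 0.00205). Trp53inp1, a p53-induced nuclear protein, had a difference of 0.60 ± 0.08. Cdkn1a, the cell-cycle inhibitor p21, was lower, at 1.45, 1.39 and 1.02 against 2.82, 3.48 and 3.75 (-1.11 ± 0.16, adjusted p = 1.44e-04), and so was Sesn1, another sestrin (-1.20 ± 0.09, adjusted p = 1.16e-06).

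Ribosomal protein genes were mostly lower over the whole list, and members with little shared sequence were split. Of 79 cytoplasmic ribosomal protein genes, 59 were lower and 10 higher (median -0.47). Rps4x, an X-linked ribosomal protein gene, was at 8.20, 14.7 and 11.1 against 50.1, 57.2 and 53.4 (-2.23 ± 0.22, adjusted p = 1.02e-05). Rpl39, also X-linked, was at 7.43, 6.44 and 5.51 against 30.5, 33.2 and 31.8 (-2.22 ± 0.11, adjusted p = 8.41e-08). Rpl23a, an autosomal gene, was at 85.5, 87.0 and 87.6 against 225, 214 and 227 (-1.35 ± 0.06, adjusted p = 4.52e-08). None of the 3 overlapped between the groups. Rpl39l, the germ-cell copy of Rpl39, was higher, at 123, 108 and 159 against 98.0, 78.0 and 73.1 (0.64 ± 0.14, adjusted p = 0.00305), as were Rpl3l and Rpl8 (0.74 ± 0.20 and 0.45 ± 0.06). In 62 of the 79 genes over 10% of 50-base words also occur in other annotated genes. Among genes of at least 500 exonic bases with under 10% shared, 17 members were tested, of which 6 were higher and 7 lower, with a median of -0.06. All genes of that fit had 40.3% higher, 27.7% lower and a median of 0.18, so the median of the members lay below it. Mitochondrial genes took 1.62% to 1.85% of reads in spermatocytes and 2.39% to 2.76% in testis. Of 13, 10 were lower, but 5 of the 13 reached the filter through testis libraries alone, which set their direction. Of the other 8, 5 were lower. mt-Co1, a cytochrome oxidase subunit, was at 4257, 4179 and 3997 against 4901, 4901 and 5277 (-0.28 ± 0.08, adjusted p = 0.0121), and mt-Cytb, of complex III, overlapped, at 2966, 2899 and 2772 against 2796, 2791 and 3091. The other members that fell by the most stood near 0 in spermatocytes and at no more than 71 in testis. mt-Co2, a cytochrome oxidase subunit, was at 0, 0.307 and 0 against 34.0, 34.2 and 46.2. mt-Atp6, of ATP synthase, was at 0, 0.308 and 0.187 against 36.3, 39.9 and 44.4. These genes, with mt-Co3 and mt-Atp8, were among the 10 largest falls, but all or nearly all 50-base words of mt-Co2, mt-Atp6 and mt-Co3 also occur in other annotated genes, so their levels are uncertain. Among the 5 members with few shared words 3 were lower. The remaining large falls were Gm11146 and 1700011M02Rik. Gm11146, with 96 exonic bases, was listed at 0 in all spermatocyte libraries and at 25.1, 21.8 and 28.2 in testis. Testis libraries alone brought it to the filter, which set its direction. 1700011M02Rik, an X-linked gene of 420 bases, was at 1.40, 2.00 and 0.607 against 68.1, 70.2 and 81.9 (-5.41 ± 0.25; limma, adjusted p = 6.74e-08).

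X-linked genes leaned lower. Of 520 protein-coding X-linked genes tested, 261 were lower (50.2%) and 101 higher (19.4%), with a median difference of -0.45. Of 12776 autosomal genes, 28% were lower and 35.9% higher, with a median of 0.14. Among genes of at least 500 exonic bases with under 10% of 50-base words shared, the medians were -0.36 for 386 X-linked genes and 0.19 for 10236 autosomal genes. Meiotic sex chromosome inactivation silences the X chromosome in pachytene spermatocytes, and some X-linked genes belong to Sertoli cells. Rhox8, a homeobox gene of Sertoli cells, stood at 4.09, 2.96 and 1.27 against 82.0, 88.7 and 107 (-4.93 ± 0.34, adjusted p = 8.00e-07), and Tsx, a testis-specific X-linked gene, at 2.62, 4.26 and 1.41 against 79.4, 79.7 and 91.7 (-4.78 ± 0.41, adjusted p = 3.47e-06). The part of Sertoli genes in the X-linked values was not tested. Some X-linked genes of germ cells were higher. Tex11, a meiotic recombination gene, was at 53.2, 44.6 and 40.2 against 15.2, 18.2 and 17.5 (1.41 ± 0.10, adjusted p = 1.07e-06). Usp26, a germ-cell ubiquitin protease, was at 59.8, 51.0 and 35.3 against 16.2, 18.1 and 18.7 (1.41 ± 0.17, adjusted p = 3.80e-05). Esx1, a homeobox gene, was at 53.9, 54.02 and 48.7 against 15.3, 19.2 and 18.3 (1.55 ± 0.10, adjusted p = 5.53e-07). Rhox13, a homeobox gene of germ cells, was at 44.0, 38.1 and 36.5 against 15.6, 16.6 and 17.96 (1.21 ± 0.09, adjusted p = 1.41e-06). The first 5 of these 6 genes were chosen after their values were seen. For Tex11 and Usp26 the order of the spermatocyte libraries, highest in 1 and lowest in 3, differed from that of the pachytene genes, where library 3 was the highest. In KO the medians were -0.17 for X-linked and 0.18 for autosomal genes.

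**Figure D5:**
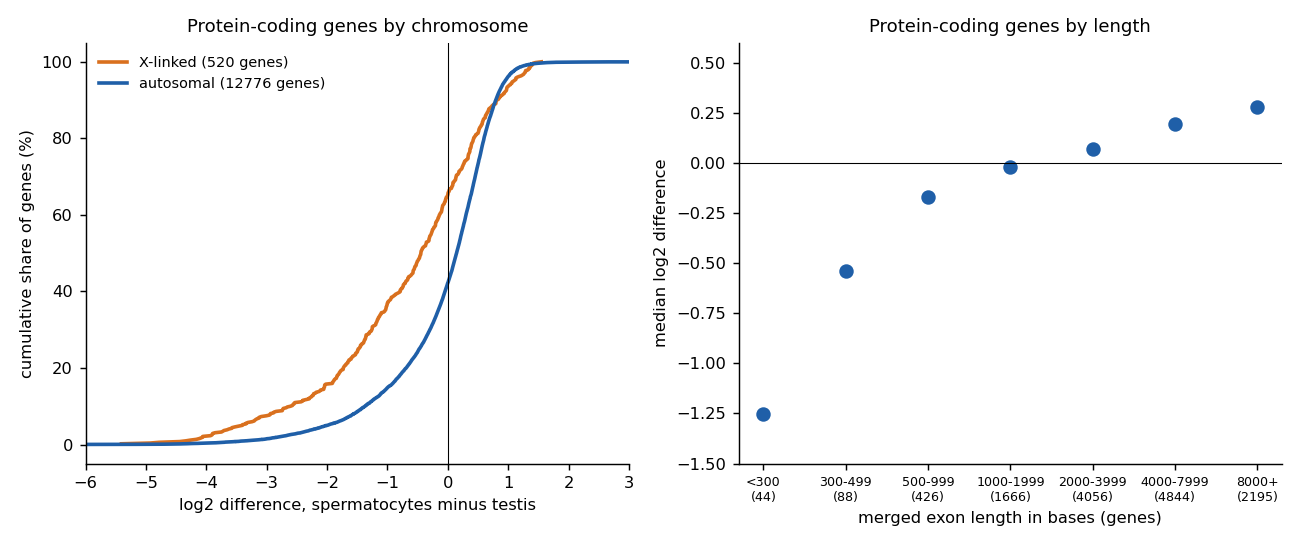
Left, cumulative share of protein-coding genes (vertical, percent) by log2 difference (horizontal, spermatocytes minus testis), for 520 X-linked genes in orange and 12776 autosomal genes in blue; the X-linked curve lies to the left of the autosomal one over most of the range. Right, the median log2 difference of protein-coding genes by merged exon length, with gene numbers in brackets, rising from -1.25 below 300 bases to 0.28 at 8000 bases or more.

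The KO comparison, set beside the Het comparison here, shares no library with it. Both were made as the same 2 kinds of file, and they share the scaling, filter and spread of 1 fit. Between KO spermatocytes and KO testis, 6297 genes were higher (31.7%) and 6125 lower (30.9%). Of the 680 genes higher by at least 1 in Het, 555 (81.62%) were called higher in KO and 7 lower. Of the 3879 genes lower by at least 1 in Het, 3552 (91.57%) were called lower in KO and 4 higher. In the other direction, 72.56% of the genes higher in KO were higher in Het, and 83.8% of those lower in KO were lower in Het. The difference between genotypes was itself tested: 25 genes (0.126%) had a larger value in KO and 45 (0.227%) a smaller one, and none of the tested list members was among them. Fos stood at 41.1, 69.5 and 106 in KO spermatocytes and 2.69, 1.74 and 1.49 in KO testis, a difference of 4.81 against 4.52 in Het. Sox9 had -4.54 in KO against -4.09 in Het, and Kit 1.901 against 1.30. Piwil1 was at 9.62, 9.97 and 15.7 in KO spermatocytes and 14.3, 16.7 and 15.3 in KO testis, a difference of -0.41 against 1.24 in Het, and the difference between genotypes did not pass for this gene.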

How the data were processed

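Poly(A) RNA of P18 spermatocytes and P18 testis was sequenced in 3 Het and 3 KO libraries each, labelled as biological replicates. The submitters' processing notes name edgeR 3.28.1, featureCounts, STAR 2.6.1a, CASAVA 1.9 and the build GRCm38. Settings, use of strand and the way cells were isolated are not given in the sources used here. Spermatocyte values were deposited as RPKM and testis values were deposited by the authors as FPKM, so count models on the deposited values were not used as main tests.

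Symbols were matched to the GENCODE vM21 annotation (53171 of 55184, and 405 by older symbols). Low values were whole multiples of the value of 1 read, within 0.02, for 99.0% to 99.2% of genes, which gave the library depths. Libraries were put on 1 scale with TMM factors of those reads (trims of 30% and 5%). Genes at 1 or more in at least 3 of the 12 P18 libraries were tested on log2(level + 0.5) with limma 3.58.1 (R 4.3.3; trended, robust variance), with Benjamini-Hochberg adjustment over all 19843 genes. Python 3.11.15 was used for the tables. The fit was checked on simulated data with 50 genes changed at each of 4 sizes. True log2 differences of 1 and -1 were called for 26% and 36% of genes, those of 2 and -2 for 100% and 94%. Of unchanged genes 0.0369% were called. Far fewer genes changed there than were called here, so these shares may not carry over. A gene that did not pass may still differ by about 2-fold. Named are Zfp541, each list's defining markers and up to 3 largest rises and falls, and the 10 largest rises and falls among protein-coding genes with a mean of 5 or more in the higher group and no overlap. The comparison and the 23 gene lists were chosen with earlier results of these data known. Alternatives covered scaling, pseudocount, filter, libraries, blocks, weights, recovered reads, gene length and shared sequence. Promoters came from RefSeq (GRCm38.p6). Rows sharing a symbol, Ddit3 among them, were left out.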

Additional observations from a re-analysis of the deposited data

Results flagged for a closer look

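The difference between spermatocytes and testis was compared between KO and Het. By limma's test of that difference, 25 genes had a larger value in KO (0.126% of those tested) and 45 a smaller one (0.227%). None was a member of the 23 gene lists or a gene named above. Without 1 library in turn the counts ran from 0 to 176 and from 3 to 208, so they rest on single libraries.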

How the results depend on the processing

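Of 19843 genes, 5214 were higher and 6297 lower. The balance turned at a level of 5 in 3 libraries (4473 higher, 3353 lower), among long genes with few shared 50-base words (4284 and 2946), with the length adjustment (6151 and 5150) and with median-of-ratios scaling (6416 and 5650). Leaving out 1 library gave 4352 to 6326 higher and 5215 to 6169 lower. With a replicate block, 4399 were higher and 5950 lower. A fit of the 6 Het libraries alone had 3877 higher and 5206 lower of 17856 tested. Same-numbered Het libraries correlated at -0.19, 0.03 and -0.38 after group means. Deviations from a mean of 3 libraries depend on each other, so these values cannot show whether the numbers pair the libraries. The 25 genes above 0 for KO minus Het became 7 with median-of-ratios scaling, 58 on deposited values, 57 at pseudocount 0.1, 11 without a filter, 159 at a level of 5, 0 with the replicate block and 112 among long genes, and 0 to 176 without 1 library. The 45 below 0 became 79, 232, 88, 21, 98, 0 and 87 in the same order, 23 with a pseudocount of 1, 69 with voom on recovered reads and 114 with the length adjustment, and 3 to 208 without 1 library. Acta2 turned sign to 0.12 with median-of-ratios scaling, 0.47 without spermatocyte library 1, 0.11 and 0.05 without testis libraries 2 and 3 and 0.15 with the length adjustment, a range of -0.26 to 0.47 without 1 library. H1f6 turned to 0.040 with the length adjustment and Hspa1b to 0.063 without testis library 3, a range of -0.27 to 0.063 without 1 library. The causes were not tested. The length adjustment and the restriction to long genes were chosen after seeing the data. Single calls that ended in at least 1 alternative were those of Dnajb1, Ldhc, Mt1, Oaz3, Pdgfra, Prm1, Spaca1, Spo11, Srxn1 and Tdrd6. Depth limits genes at levels under about 1, such as the chemokines and spermatid genes.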

Other observations

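Outside the gene lists, several genes separated the fractions by large amounts. They were chosen after their values were seen, as were the others named here. Fn1, fibronectin of the extracellular matrix, stood at 31.6, 26.7 and 24.2 in spermatocytes and 6.09, 7.55 and 6.91 in testis, higher in 3 of 3 libraries (1.93 ± 0.14, adjusted p = 7.80e-07). Lama5, a laminin chain of basement membranes, was at 9.67, 11.6 and 8.84 against 2.66, 3.09 and 2.85 (1.64 ± 0.11, adjusted p = 5.97e-07). Col3a1 and Dcn, other matrix genes, had gone the other way. Socs1, a relative of Socs3 that inhibits cytokine signalling, was at 5.71, 6.46 and 5.44 against 1.18, 1.505 and 1.45 (1.76 ± 0.11, adjusted p = 3.74e-07). Mdn1, a ribosome assembly factor of very large size, was at 81.7, 73.5 and 63.5 against 20.1, 21.4 and 20.9 (1.78 ± 0.09, adjusted p = 9.79e-08). Pou3f1, a POU factor of spermatogonia, was at 7.41, 9.30 and 6.06 against 1.83, 2.37 and 1.81 (1.68 ± 0.15, adjusted p = 4.32e-06).

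The largest rises outside the lists also held 5 axonemal dynein heavy chain genes, which build the motor of the sperm tail. Dnah17 stood at 38.3, 29.0 and 76.5 in spermatocytes and 22.6, 13.9 and 8.21 in testis (1.64 ± 0.37, adjusted p = 0.00309), with spermatocyte library 3 highest and testis library 3 lowest. Dnah8 was at 85.1, 61.9 and 156 against 49.0, 30.9 and 18.6 (1.61 ± 0.39, adjusted p = 0.00443). Dnah12, Dnah6 and Dnah1 had differences of 1.57 ± 0.36, 1.56 ± 0.37 and 1.54 ± 0.32. The first libraries of testis were the highest of their group for Dnah17 and Dnah8. All 5 kept their calls with the length adjustment. In KO the Dnah17 difference was -0.09, and the difference between genotypes did not pass for it.

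Among the falls outside the lists were further genes known from Sertoli cells and the male tract. Defb19, a defensin, stood at 14.6, 11.7 and 6.31 in spermatocytes and 278, 301 and 360.1 in testis (-4.85 ± 0.35, adjusted p = 9.21e-07). Wfdc10, a protease inhibitor of the same secreted kind as Eppin, was at 6.08, 6.63 and 2.36 against 122, 133 and 157 (-4.74 ± 0.31, adjusted p = 4.79e-07), and Eppin at 2.74, 2.70 and 1.89 against 60.4, 63.1 and 70.3 (-4.48 ± 0.22, adjusted p = 9.36e-08). Serpina5, a serine protease inhibitor, was at 1.97, 1.84 and 1.24 against 48.6, 52.9 and 53.8 (-4.59 ± 0.30, adjusted p = 5.01e-07). All testis libraries were far above all spermatocyte libraries for these 4 genes. Gsta2, a glutathione transferase, and Dmrta1, a DM-domain factor, had differences of -4.53 ± 0.13 and -4.69 ± 0.15. Both stood under the filter level of 1 in every Het spermatocyte library. Among the Het libraries testis alone brought them to the filter, which set their direction.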
